A study of Mus musculus with 12 samples.

Results

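T cells mature in the thymus on a scaffold of epithelial cells: those of the cortex (cTEC) drive T-cell commitment and positive selection, and those of the medulla (mTEC) present self antigens for negative selection. The liver X receptors LXRalpha (gene Nr1h3) and LXRbeta (gene Nr1h2) are nuclear receptors that bind oxidised cholesterol derivatives and switch on genes of sterol export and fatty acid synthesis. The 6 genes described here are Ism1, Efemp1, Ttpa, Ptplad2, Me3 and Arhgap20. They were chosen by their measured values in these libraries, for a more negative effect of the Cre genotype in cTEC than in mTEC. They are 6 of 31332 genes in the count table and 6 of 17268 genes tested, and all 6 passed the filter on low counts.

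RNA was sequenced from 12 libraries of mouse thymic epithelium, 3 in each of 4 groups, all of strain C57BL6/J and from animals aged 2 months. The control groups carry floxed alleles of both receptors (LXRalpha flox LXR beta flox) and no Cre. The Cre groups carry the same floxed alleles crossed to FoxN1-Cre, in which Foxn1 sequences drive the recombinase in thymic epithelium. Since the control animals lack Cre, recombinase and loss of the receptors cannot be told apart. Cells were released from the thymus with enzymes and sorted by flow cytometry into lysis buffer. Libraries are numbered as in the labels: mTEC control 1 to 3, mTEC Cre 4 to 6, cTEC control 7 to 9 and cTEC Cre 10 to 12. The labels do not say whether libraries came from separate animals, so p-values measure only the spread between these libraries.

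Levels are given in CPM, a gene's count as a share of all counts of its library, after TMM scaling. Libraries held between 4804697 and 11159013 counts, so that a single count was worth 0.0898 to 0.194 CPM. In bulk libraries, fewer cells of a type and less RNA per cell cannot be told apart. Nr1h2 had a log2 fold change of -0.58 for Cre over control in cTEC (adjusted p = 0.00566, edgeR) and -0.63 in mTEC (adjusted p = 0.0158, edgeR). For Nr1h3 the adjusted p was 0.869 in cTEC and 0.67 in mTEC (edgeR), and the sources used here do not say which exons were deleted. The LXR target Abcg1, a sterol exporter, was lower by -4.05 in cTEC and -2.55 in mTEC on the log2 scale. The fatty acid desaturase gene Scd2 was lower by -4.07 and -3.05. Foxn1 was also lower in the Cre libraries, by -1.53 in cTEC (adjusted p = 0.00851) and -1.63 in mTEC (adjusted p = 0.0216, edgeR).

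Ism1 and Efemp1 encode secreted proteins. Ism1 (isthmin 1) is a signalling protein with a thrombospondin type 1 repeat, and Efemp1 (fibulin-3) is a matrix glycoprotein of the fibulin family. Ttpa, Ptplad2 and Me3 act in lipid and intermediary metabolism inside the cell. Ttpa is the alpha-tocopherol transfer protein, the cytosolic carrier of vitamin E. Ptplad2, now named Hacd4, is a 3-hydroxyacyl-CoA dehydratase of the endoplasmic reticulum, an enzyme class of very long chain fatty acid elongation. Me3 is the NADP-dependent malic enzyme of mitochondria, which yields pyruvate and NADPH from malate. Arhgap20 is a GTPase-activating protein that binds the small GTPase Rap1.

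Promoters are shown because the 6 genes were picked together and because LXR and Foxn1 bind known motifs. RefSeq promoter windows (build GRCm38.p6, 250 bases before to 50 bases after the start) matched 4 of the 6 genes: Efemp1, Ptplad2, Me3 and Arhgap20. Promoters of Ism1 and Ttpa are not shown. The Efemp1 window is chr11:28852955-28853254 on the plus strand and the Ptplad2 window chr4:88438866-88439165 on the minus strand. The Me3 window is chr7:89632568-89632867 and the Arhgap20 window chr9:51765101-51765400, both on the plus strand. Each is printed 5′ to 3′ on the gene's strand, with motif matches in capitals.
Efemp1: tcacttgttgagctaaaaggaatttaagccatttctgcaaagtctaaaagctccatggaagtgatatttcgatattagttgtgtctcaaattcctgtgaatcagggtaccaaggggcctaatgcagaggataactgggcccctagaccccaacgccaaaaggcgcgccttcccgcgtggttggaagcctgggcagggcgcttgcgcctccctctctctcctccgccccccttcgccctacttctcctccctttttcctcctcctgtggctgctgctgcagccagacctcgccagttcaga
Ptplad2: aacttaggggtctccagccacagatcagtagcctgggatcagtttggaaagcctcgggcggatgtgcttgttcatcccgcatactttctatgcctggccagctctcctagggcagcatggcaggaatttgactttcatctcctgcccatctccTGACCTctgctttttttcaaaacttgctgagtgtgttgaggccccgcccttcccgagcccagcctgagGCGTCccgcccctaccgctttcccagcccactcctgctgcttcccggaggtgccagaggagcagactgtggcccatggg
Me3: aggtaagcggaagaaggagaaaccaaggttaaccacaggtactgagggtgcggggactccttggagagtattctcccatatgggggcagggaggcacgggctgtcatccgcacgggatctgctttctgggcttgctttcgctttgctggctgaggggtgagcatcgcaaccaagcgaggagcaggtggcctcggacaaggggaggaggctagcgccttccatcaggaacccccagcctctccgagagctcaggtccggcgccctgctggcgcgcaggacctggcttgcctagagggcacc
Arhgap20: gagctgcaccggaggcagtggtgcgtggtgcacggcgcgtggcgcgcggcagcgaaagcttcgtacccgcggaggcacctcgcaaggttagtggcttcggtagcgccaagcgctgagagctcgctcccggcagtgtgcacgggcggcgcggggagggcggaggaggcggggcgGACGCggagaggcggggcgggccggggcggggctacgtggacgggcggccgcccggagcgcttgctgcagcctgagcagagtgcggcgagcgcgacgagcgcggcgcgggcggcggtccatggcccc
The motifs searched on both strands were AGGTCA, the half-site of nuclear receptors, this half-site repeated in the same direction with 4 bases between, as LXR binds it, and GACGC, the core bound by Foxn1. Ptplad2 had 1 half-site on the opposite strand at position -97 from the start, printed as TGACCT, and 1 GACGC on the opposite strand at -29, printed as GCGTC. Arhgap20 had 1 GACGC at -77. The Efemp1 and Me3 windows held neither, and no window held the repeat. Among 32851 RefSeq promoters of the same length, 16.3% held the half-site, 0.0152% the repeat and 27.2% GACGC. A match describes letters in a window and not a bound site.

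Levels in the 12 libraries fell into 2 patterns, a grouping made after the values were seen. Ism1 and Efemp1 were lower in Cre cTEC than in control cTEC, with mTEC values that overlapped between genotypes. Ttpa, Ptplad2, Me3 and Arhgap20 were lower by less in cTEC, and stood 2.19 to 3.00 times higher in Cre mTEC than in control mTEC. For these 4 genes most of the difference between the genotype effects, fitted to all 12 libraries, therefore lay in the medulla. Only Ism1 and Efemp1 combined lower cortical values with mTEC fold changes near 0. In fits that left out 1 library, the mTEC log2 fold change ran from 1.155 to 1.97 for Ptplad2 and from 1.30 to 2.14 for Me3. It ran from 0.93 to 1.38 for Arhgap20 and from 1.04 to 1.51 for Ttpa. Without library 11, the Arhgap20 effect in cTEC was -1.02 within a difference of -2.10. Genotype effects chose the genes and are given for them as values, without a test.

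**Figure D1:**
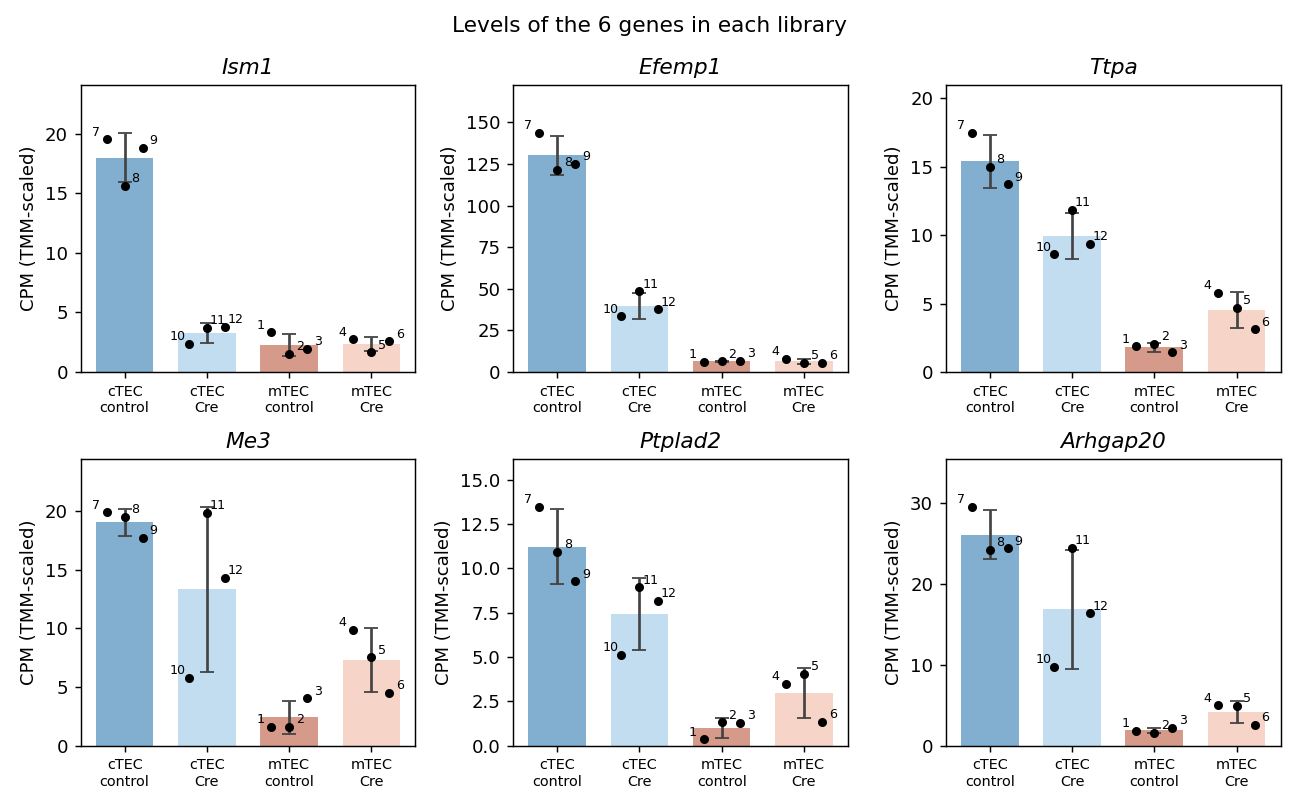
Level of each gene (y axis, TMM-scaled CPM, linear from 0) in each library, by cell type and genotype (x axis). Points are libraries with their numbers, bars are group means and error bars SD (n = 3). Ism1 and Efemp1 are lower in Cre than in control cTEC and overlap between the mTEC groups, and the other 4 genes stand higher in Cre than in control mTEC.

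Ism1 measured 19.5, 15.6 and 18.8 CPM in control cTEC libraries 7 to 9 and 2.35, 3.69 and 3.80 CPM in Cre cTEC libraries 10 to 12. In mTEC, controls 1 to 3 held 3.32, 1.53 and 1.96 CPM, and Cre libraries 4 to 6 held 2.74, 1.66 and 2.58 CPM. The 3 Cre cTEC libraries lay below all 3 controls with no overlap, within or just above the range of mTEC, and the mTEC groups overlapped. The cTEC mean was 18.0 ± 2.08 CPM (SD, n = 3) in controls and 3.28 ± 0.81 CPM in Cre libraries, 5.49 times lower. The fitted log2 fold change was -2.48 (SE 0.28) in cTEC and 0.01 (SE 0.34) in mTEC. In Cre libraries the 2 cell types overlapped for Ism1, with means 1.41 times apart, against 7.93 times in controls.

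Efemp1 measured 144, 121 and 125 CPM in control cTEC and 33.5, 48.6 and 37.6 CPM in Cre cTEC. The mTEC controls held 6.11, 6.45 and 6.66 CPM, and the Cre mTEC libraries 7.91, 5.72 and 5.58 CPM. The cTEC groups did not overlap, each Cre cTEC library holding 25.8% to 37.3% of the control mean, and the mTEC groups did overlap. The log2 fold change was -1.72 (SE 0.13) in cTEC and 0.00 (SE 0.20) in mTEC. Unlike Ism1, Efemp1 in Cre cTEC was still 6.23 times its level in Cre mTEC, with no overlap between the cell types.

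Ttpa measured 17.5, 15.0 and 13.7 CPM in control cTEC and 8.61, 11.9 and 9.36 CPM in Cre cTEC. The mTEC controls held 1.89, 2.08 and 1.44 CPM, and the Cre mTEC libraries 5.78, 4.67 and 3.13 CPM. Neither pair of groups overlapped: Cre libraries were lower in cTEC and higher in mTEC. Means were 1.55 times lower in cTEC and 2.51 times higher in mTEC. The log2 fold changes were -0.64 (SE 0.22) in cTEC and 1.30 (SE 0.28) in mTEC.

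Ptplad2 measured 13.5, 10.9 and 9.28 CPM in control cTEC and 5.14, 8.94 and 8.19 CPM in Cre cTEC. The mTEC controls held 0.359, 1.31 and 1.31 CPM, and the Cre mTEC libraries 3.50, 4.07 and 1.36 CPM. Again neither pair overlapped, but the nearest libraries almost met, control 9 with Cre 11 in cTEC and the controls with Cre 6 in mTEC. The mTEC controls rest on 4 to 12 reads per library. The log2 fold changes were -0.61 (SE 0.33) in cTEC and 1.62 (SE 0.46) in mTEC. The cTEC value was -0.39 without Cre cTEC library 10 and -0.77 without library 11.

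Me3 measured 19.9, 19.5 and 17.7 CPM in control cTEC and 5.81, 19.8 and 14.3 CPM in Cre cTEC. The mTEC controls held 1.62, 1.64 and 4.05 CPM, and the Cre mTEC libraries 9.89, 7.53 and 4.49 CPM. The cTEC groups overlapped, because Cre library 11 stood at the control level, and library 10 held 30.5% of the control mean. The mTEC groups did not overlap. The log2 fold changes were -0.56 (SE 0.34) in cTEC and 1.62 (SE 0.42) in mTEC. Without Cre cTEC library 10 the cTEC value was -0.17, and without library 11 it was -0.95.

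Arhgap20 measured 29.6, 24.2 and 24.4 CPM in control cTEC and 9.72, 24.5 and 16.4 CPM in Cre cTEC. The mTEC controls held 1.89, 1.64 and 2.22 CPM, and the Cre mTEC libraries 5.02, 4.97 and 2.58 CPM. As for Me3, Cre cTEC library 11 reached the controls, so the cTEC groups overlapped, while the mTEC groups did not. The log2 fold changes were -0.66 (SE 0.25) in cTEC and 1.12 (SE 0.37) in mTEC. Without Cre cTEC library 10 the cTEC value was -0.36, and without library 11 it was -1.02.

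**Figure D2:**
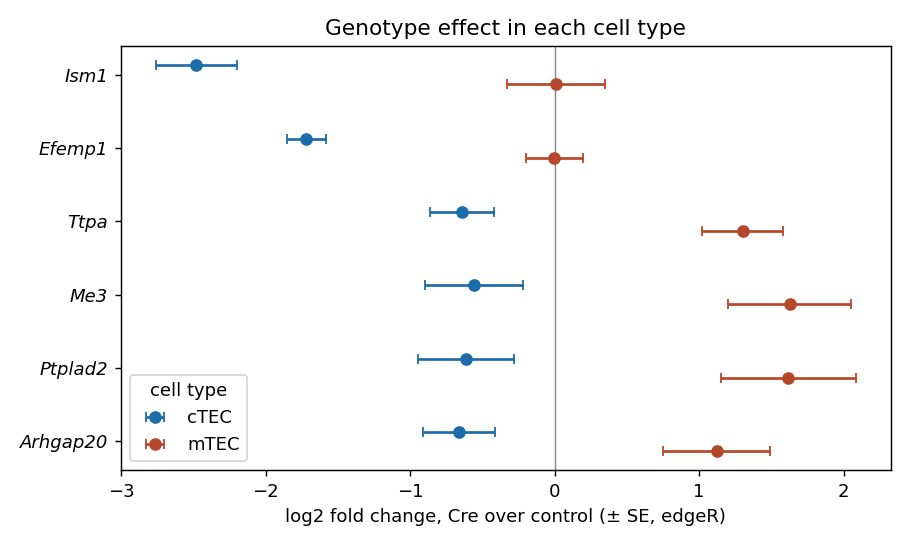
Fitted log2 fold change of Cre over control (x axis) for each gene (y axis) in cTEC (blue) and mTEC (red). Error bars are standard errors from edgeR. Ism1 and Efemp1 lie at 0 in mTEC, and the other 4 genes lie between 1.12 and 1.62 there.

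Counted by libraries, 4 of the 6 genes (Ism1, Efemp1, Ttpa and Ptplad2) had every Cre cTEC library below every control. For 4 of 6 (Ttpa, Ptplad2, Me3 and Arhgap20), every Cre mTEC library was above every control. Over all genes tested, edgeR called 9.01% changed in cTEC, 3.38% lower there, and 2.07% changed in mTEC (adjusted p under 0.05). Those shares count calls, a stricter measure than libraries without overlap, and the share of all genes without overlap was not counted. Since the rule used these contrasts, nothing is read from the counts.

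The difference of the genotype effects, cTEC minus mTEC, was -2.49 (SE 0.44) for Ism1 on the log2 scale, -2.23 (SE 0.57) for Ptplad2 and -2.18 (SE 0.54) for Me3. It was -1.94 (SE 0.36) for Ttpa, -1.78 (SE 0.44) for Arhgap20 and -1.72 (SE 0.24) for Efemp1. The standard errors exceed the distance between neighbours in this order. Of all genes tested, 0.405% had a lower value than Ism1 and 1.79% a lower value than Efemp1, so by log2 value the 6 are not the extreme of the table. That rank does not take the standard errors into account. All 6 were selected on this difference; over all genes, 4.01% were called changed in it and 1.08% lower.

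**Figure D3:**
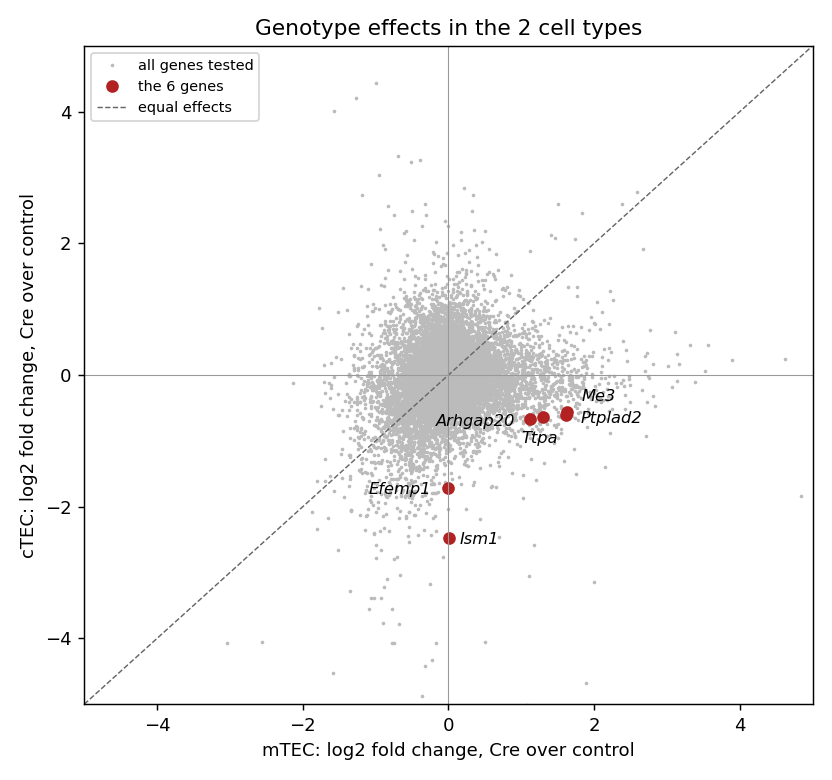
Genotype effect in cTEC (y axis) against that in mTEC (x axis), both log2 fold changes of Cre over control, for all genes tested (grey) and the 6 genes (red). The dashed line marks equal effects, and 4 genes lie outside the axes. Ism1 and Efemp1 lie straight below the origin, and the other 4 lie close together to the lower right.

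The rule did not use the contrast between the cell types averaged over genotypes, and this contrast was tested. It comes from the same libraries that chose the genes, and low counts in mTEC enter both. Calls in it are therefore not independent support for the choice of the 6 genes. All 6 genes were higher in cTEC than in mTEC, and all 6 were called, where 33.8% of all genes tested were called in that direction and 65.9% in either. The log2 effect of mTEC over cTEC was -3.49 (SE 0.12) for Efemp1, with an adjusted p of 4.0e-15 by edgeR. It was -2.87 (SE 0.21, adjusted p = 5.7e-10, edgeR) for Arhgap20 and -2.42 (SE 0.28, adjusted p = 3.2e-07, edgeR) for Ptplad2. Ttpa had -2.10 (SE 0.18, adjusted p = 3.4e-09, edgeR). Me3 had -1.92 (SE 0.27, adjusted p = 3.9e-06, edgeR) and Ism1 -1.70 (SE 0.22, adjusted p = 1.2e-06, edgeR). The Me3 value lay within 1 standard error of those of Ttpa and Ism1. In control libraries alone, cTEC means stood above mTEC means by 7.81 times for Me3 to 20.3 times for Efemp1, with no overlap for any of the 6. How many of all genes tested had no overlap there was not counted. In Cre libraries alone the ratio ran from 1.41 times for Ism1 to 6.23 times for Efemp1, and the cell types overlapped for Ism1 and Me3. That narrowing restates the difference that chose the genes.

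Levels of different genes were compared per kilobase of the longest annotated transcript (GENCODE M21). In control cTEC, Efemp1 stood at 63.9 ± 5.85 CPM per kb (SD, n = 3), about an order of magnitude above the next gene. Ism1 followed at 6.08 ± 0.70 CPM per kb, Ttpa at 4.92 ± 0.61 and Me3 at 4.24 ± 0.26. Arhgap20 stood at 3.64 ± 0.42 and Ptplad2 at 2.40 ± 0.45 CPM per kb. From Ism1 to Arhgap20, each gene lay within the summed SD of its neighbour. In control mTEC the order of the means was the same, from 3.15 CPM per kb for Efemp1 to 0.212 for Ptplad2.

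In 3 of the 4 groups the same libraries were often lowest or highest across the genes. In Cre cTEC, library 10 was the lowest for all 6 genes and library 11 the highest for 5, Ism1 having library 12 as the highest. In Cre mTEC, library 6 was the lowest for 5 genes, Ism1 being lowest in library 5. Library 4 was the highest for 5, with Ptplad2 highest in library 5. In control cTEC, library 7 was the highest for all 6. In control mTEC the lowest and the highest library differed between the genes. Within Cre cTEC, library 10 held the most counts (10243160) with the lowest TMM scaling factor (0.875). Library 11 held the fewest (4804697) with the highest factor (1.08), and library 12 lay between on both. Within Cre mTEC, library 6 held the most counts (7006522) with the highest factor (1.05). Within control cTEC, library 7 held the fewest (5992644) with a factor between the others. The part of depth and scaling in these orders was not tested.

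Cell type markers were set beside these values. The sum over 14 cTEC markers was 12631 to 15541 CPM in control cTEC and 4399 to 4698 CPM in control mTEC, and all 14 were detected in every group. The sum over 14 mTEC markers was 2393 to 2693 CPM in control cTEC and 7627 to 7891 CPM in control mTEC. Of these, Ccl21a alone was at 0, in every group but Cre mTEC, and it is named after its values were seen. In Cre cTEC the cTEC marker sum was 28817, 13770 and 21700 CPM in libraries 10, 11 and 12, the inverse of the order of Efemp1, Ttpa, Ptplad2, Me3 and Arhgap20. Of the 14 cTEC markers, 6 were called higher and 1 lower in Cre cTEC. The lower marker was Foxn1, whose sequences drive the Cre. The mTEC marker sum in Cre cTEC was 1352 to 1576 CPM, below all controls, with 3 of 13 tested markers called higher and 2 lower. The 2 lower were Krt5 (from 1443 to 835 CPM) and Krt14 (from 969 to 437 CPM). The 3 higher were Fezf2, Cd40 and Tnfrsf11a. These markers are named after their values were seen. In Cre mTEC the cTEC marker sum was 5082, 4946 and 3805 CPM in libraries 4, 5 and 6, the same order as Efemp1, Ttpa, Me3 and Arhgap20. There, 2 of 14 cTEC markers were called lower and the sum over mTEC markers was 6538 to 7436 CPM, below the controls. The part of epithelial composition in the values of the 6 genes was not tested.

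Lists of other cell types were summed in the same way. The sum over 14 fibroblast markers was 252 to 308 CPM in control cTEC. It was 258, 478 and 406 CPM in Cre cTEC libraries 10, 11 and 12, with 2 of 13 tested markers called higher and 1 lower. Efemp1, Ttpa, Ptplad2, Me3 and Arhgap20 all had this order in the 3 libraries, lowest in 10 and highest in 11. In mTEC the fibroblast sum was 282 to 340 CPM in controls and 214 to 258 CPM in Cre libraries. Endothelial markers summed to 29.9 to 45.7 CPM in control cTEC, 19.7 to 39.4 in Cre cTEC, 68.7 to 72.3 in control mTEC and 55.7 to 74.2 in Cre mTEC. Pericyte and smooth muscle markers summed to 455 to 712 CPM in control cTEC, 596 to 643 in Cre cTEC, 1720 to 1994 in control mTEC and 1939 to 2502 in Cre mTEC. Though the cTEC sums overlapped, 3 of 10 tested pericyte and smooth muscle markers were called higher in Cre cTEC and 0 lower. Of all genes tested, 5.62% were called higher there and 3.38% lower. Thymocyte markers summed to 154 to 300 CPM over all 12 libraries. Macrophage and dendritic cell markers summed to 58.4 to 81.5 CPM in cTEC and 292 to 454 CPM in mTEC. Adipocyte markers ran from 17.3 to 26.0 CPM in cTEC and from 100 to 182 CPM in mTEC. Erythroid markers summed to 4.50 to 10.6 CPM in control cTEC and 74.5, 29.3 and 9.21 CPM in Cre cTEC libraries 10, 11 and 12. They summed to 13.7 to 28.9 CPM in control mTEC and 113, 12.2 and 12.2 CPM in Cre mTEC libraries 4, 5 and 6. The erythroid sum was thus highest in library 10, lowest of its group for all 6 genes, and in library 4, highest of its group for 5. Mesothelial markers summed to 197 to 319 CPM in control mTEC and 308 to 486 CPM in Cre mTEC, with no marker called there. Among the other lists in Cre cTEC, 1 of 9 tested endothelial, 1 of 7 mesothelial and 1 of 11 thymocyte markers were called lower. There, 1 of 12 macrophage and dendritic cell markers was called higher, and no adipocyte or erythroid marker was called. In Cre mTEC, 1 of 13 fibroblast and 1 of 12 macrophage and dendritic cell markers were called lower. The part of these cells in the values of the 6 genes was not tested.

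**Figure D4:**
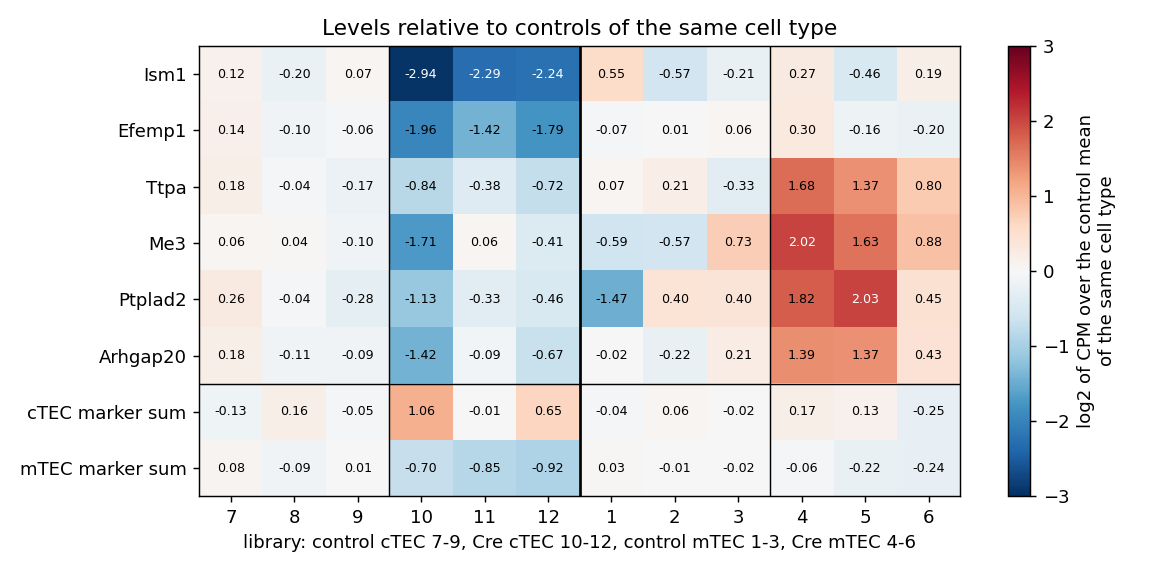
Level of each gene and of the cTEC and mTEC marker sums (y axis) in each library (x axis), as log2 of CPM over the control mean of the same cell type (colour and printed value). Cre cTEC library 10 has the lowest value of all 6 genes in its group and the highest cTEC marker sum. In Cre mTEC, libraries 4 and 5 hold the highest values of Ttpa, Ptplad2, Me3 and Arhgap20.

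Likeness between genes was measured by Pearson's r of log2 CPM over the 12 libraries after the mean of each cell type was subtracted. It is a description: the points share libraries and depth and include the genotype differences that chose the genes. The same 2 patterns appeared. Ism1 and Efemp1 had r = 0.941, and pairs among the other 4 ran from 0.786 to 0.939, the highest being Me3 with Arhgap20. Pairs between the 2 sets ran from 0.204 to 0.560.

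Among 12353 genes with a mean of at least 5 CPM, those most like Ism1 were Clu (r = 0.951), a secreted chaperone, and Ntf3 (r = 0.943), the neurotrophin-3 growth factor, followed by Efemp1. Those most like Efemp1 were Ntf3 (r = 0.975), Tmem47 (r = 0.966) and Hs6st2 (r = 0.964), a heparan sulfate sulfotransferase. Ntf3, shared by both, averaged 24.1 CPM in control cTEC, 10.6 in Cre cTEC, 0.470 in control mTEC and 0.389 in Cre mTEC. Not all these neighbours were higher in cTEC. In the same order of groups, Clu averaged 565, 328, 928 and 879 CPM, higher in mTEC. Tmem47 averaged 74.0, 50.2, 62.4 and 63.7 CPM, and Hs6st2 35.0, 21.4, 14.0 and 13.7 CPM. The nearest to Me3 were Arhgap20, Arhgap6 (r = 0.926), another protein of the Arhgap family, and Gm12735 (r = 0.921). Among the nearest to Arhgap20 were Me3 and Hmgxb4 (r = 0.918). The nearest to Ttpa were Casp12 (r = 0.925), Fancl (r = 0.916) and Spin4 (r = 0.911). For Ptplad2 they were Sgce (r = 0.904), Gm10720 (r = 0.890) and Orc6 (r = 0.882).

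Genes related to each of the 6 by family or pathway were then tested, the 6 themselves left out. Over all genes tested, 5.62% were called higher and 3.38% lower in cTEC, and 2.92% higher and 1.08% lower for the difference of effects. No test was made of a list as a whole. Beside Ism1 stood 20 tested genes of thrombospondin-repeat and matricellular proteins. In cTEC, edgeR called 2 of 20 lower and none higher (5 at an unadjusted p under 0.05), with a median log2 fold change of 0.09 against -0.02 over all genes. Thbs1, the matricellular thrombospondin-1, fell from 189 to 80.8 CPM (log2 fold change -1.23, SE 0.20, adjusted p = 0.00053, edgeR). Sparc, a collagen-binding matricellular protein, fell from 715 to 428 CPM (log2 fold change -0.74, adjusted p = 0.00522, edgeR). For the difference of effects, only Thbs1 was called (-1.07, adjusted p = 0.0438, edgeR). The Thbs1 call was lost in 10 of 12 fits that left out 1 library, all but those without Cre mTEC library 4 or Cre cTEC library 11. It was also lost with DESeq2, DESeq2's size factors, a robust edgeR fit and the stricter filter. Without library 11, 4 genes were called in cTEC and 3 for the difference. With limma voom, 6 were called in cTEC and 3 for the difference, and with no filter 5 and 2.

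Beside Efemp1 stood 25 fibulins and elastic fibre genes. In cTEC, 3 of 25 were called higher (5.62% of all genes) and 2 lower (3.38%), with a median log2 fold change of 0.02. Fbn1 (fibrillin-1) rose from 29.6 to 74.6 CPM (log2 fold change 1.33, SE 0.15, adjusted p = 1.6e-05, edgeR). Ltbp2, a latent TGF-beta binding protein, rose from 73.8 to 110 CPM (log2 fold change 0.58, adjusted p = 0.0116, edgeR). Loxl4, a lysyl oxidase that crosslinks matrix, fell from 30.7 to 15.2 CPM (log2 fold change -1.01, adjusted p = 0.0117, edgeR). Ltbp1 (0.45, higher) and Ltbp4 (-0.58, lower) complete the 5 and are named after their values were seen. For the difference of effects, Fbn1 (1.65, adjusted p = 0.000363, edgeR) and Ltbp2 (0.74, adjusted p = 0.0375, edgeR) were called, both higher (2.92% of all genes) and opposite in sign to Efemp1. That count of 2 was 1 without libraries 1, 3, 4, 5 or 10 in turn, 5 without library 11, 5 with limma voom and 4 with DESeq2 or no filter. Fbn1 is also on the fibroblast list. The Ltbp2 difference was lost without libraries 1, 3, 4, 5, 7, 9 or 10 in turn, its cTEC call without 7, 9 or 10, and the count in cTEC was 2 without control library 7.

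Beside Ttpa stood 18 lipid carriers of the CRAL-TRIO family and genes of vitamin E handling. In cTEC, 1 of 18 was called higher (5.62% of all genes) and 2 lower (3.38%), with a median log2 fold change of -0.15. Abca1, the LXR target that exports cholesterol, fell from 92.6 to 22.2 CPM in cTEC and from 131 to 35.5 CPM in mTEC (log2 fold changes -2.07 and -1.88, adjusted p = 2.7e-07 and 1.2e-06, edgeR). Its effects in the 2 cell types did not pass the test of their difference (-0.20, SE 0.22, adjusted p = 0.746, edgeR). Sec14l5, a family member of Ttpa, rose in cTEC from 2.59 to 15.2 CPM (log2 fold change 2.60, adjusted p = 6.0e-05, edgeR), and its difference of effects was 2.92 (SE 0.43, adjusted p = 0.00116, edgeR). Sec14l4 fell from 8.00 to 4.69 CPM (log2 fold change -0.80, adjusted p = 0.0477, edgeR), a call lost in 10 of 12 fits that left out 1 library, all but those without libraries 6 or 11. Without library 6 or 11, 2 genes were called for the difference.

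Beside Ptplad2 stood 13 genes of very long chain fatty acid elongation. In cTEC, 4 of 13 were called lower, against 3.38% of all genes, and none higher (5 at an unadjusted p under 0.05), and 11 of 13 had a negative value. The median log2 fold change was -0.42 against -0.02 over all genes tested. The elongase Elovl5 fell from 129 to 96.4 CPM (log2 fold change -0.42, adjusted p = 0.00959, edgeR). The elongase Elovl7 fell from 19.3 to 13.3 CPM (-0.54, adjusted p = 0.0135, edgeR), and also fell in mTEC (-0.50, adjusted p = 0.0242, edgeR). Tecr, the reductase of the last step, fell from 170 to 127 CPM (-0.42, adjusted p = 0.0175, edgeR). Ptplb (Hacd2), a dehydratase paralog of Ptplad2, fell from 60.1 to 44.6 CPM (-0.43, adjusted p = 0.0196, edgeR). In mTEC, Ptplb did not pass (0.25, adjusted p = 0.328, edgeR), where the Ptplad2 value was 1.62. Ptplb was the 1 gene called for the difference of effects (-0.68, SE 0.16, adjusted p = 0.0214, edgeR), with the sign of Ptplad2. That call was lost without libraries 1, 3, 4 or 5 in turn, and the Elovl7 call in cTEC without 10 or 12. Without library 11, 3 genes were called for the difference. The cTEC count was 2 without control library 9. With no filter on low counts, no gene of this list was called in cTEC or for the difference, and the Ptplb difference was -0.60 (adjusted p = 0.114, edgeR).

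Beside Me3 stood 19 genes of malic enzymes, malate and NADPH supply. In cTEC, edgeR called none of the 19 (2 at an unadjusted p under 0.05). DESeq2 called 1, limma voom 1 and the stricter filter 1. The count was 1 without library 10 and 2 without library 11. Me1, the cytosolic malic enzyme, measured 44.0 CPM in control and 43.6 in Cre cTEC (log2 fold change -0.00, adjusted p = 0.996, edgeR). In mTEC, Me1 fell from 96.0 to 52.6 CPM (log2 fold change -0.87, adjusted p = 0.00467, edgeR), where Me3 was higher in every Cre library. The difference of effects for Me1 was 0.86 (SE 0.21, adjusted p = 0.0245, edgeR), opposite in sign to Me3, and was lost without libraries 1, 3, 5, 7 or 10 in turn. The main fit called 1 gene of this list for the difference, and the count ran from 0 without library 1 to 2 without library 6 or 11. It was 3 with DESeq2, limma voom or the stricter filter, and 2 with DESeq2's size factors or no filter.

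Beside Arhgap20 stood 30 other tested Arhgap genes. In cTEC, 5 were called higher (5.62% of all genes) and 3 lower (3.38%), with a median log2 fold change of 0.08. Arhgap26 rose from 28.9 to 69.5 CPM (1.27, adjusted p = 1.0e-05, edgeR), Arhgap23 from 46.4 to 69.4 CPM (0.58, adjusted p = 0.00093, edgeR) and Arhgap33 from 22.3 to 40.7 CPM (0.89, adjusted p = 0.00645, edgeR). For the difference of effects, 5 were called higher and none lower (11 at an unadjusted p under 0.05), where 2.92% of all genes were called higher and 1.08% lower. The sign was opposite to that of Arhgap20. Among them were Arhgap26 (1.15, adjusted p = 0.0022, edgeR), Arhgap33 (1.25, adjusted p = 0.0153, edgeR) and Arhgap23 (0.69, adjusted p = 0.00951, edgeR). The cTEC count of 8 was 5 without control library 7 or 8 and 4 without control library 9. The count for the difference was 3 without library 1 or 7, 2 without library 9, where Arhgap33 was lost, and 9 without library 11.

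Rap1, the GTPase that Arhgap20 binds, is switched on by exchange factors and off by GTPase-activating proteins. Of 20 genes of this cycle, 5 were called higher and none lower in cTEC (6 at an unadjusted p under 0.05), where 5.62% of all genes were called higher, with a median log2 fold change of 0.09. They included Sipa1l2 (from 44.4 to 110 CPM, 1.31, adjusted p = 0.000398, edgeR) and Sipa1l3 (from 34.4 to 86.6 CPM, 1.34, adjusted p = 6.7e-06, edgeR), both GTPase-activating proteins for Rap. They also included Rapgef1, an exchange factor (from 46.6 to 72.3 CPM, 0.63, adjusted p = 0.00208, edgeR). None of the 20 was called in mTEC (1 at an unadjusted p under 0.05). For the difference of effects, 4 were called higher, against 2.92% of all genes, and none lower, led by Sipa1l2 (1.97, adjusted p = 0.00187, edgeR), Sipa1l3 (1.21, adjusted p = 0.00187, edgeR) and Rapgef1 (0.81, adjusted p = 0.00944, edgeR).

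**Figure D5:**
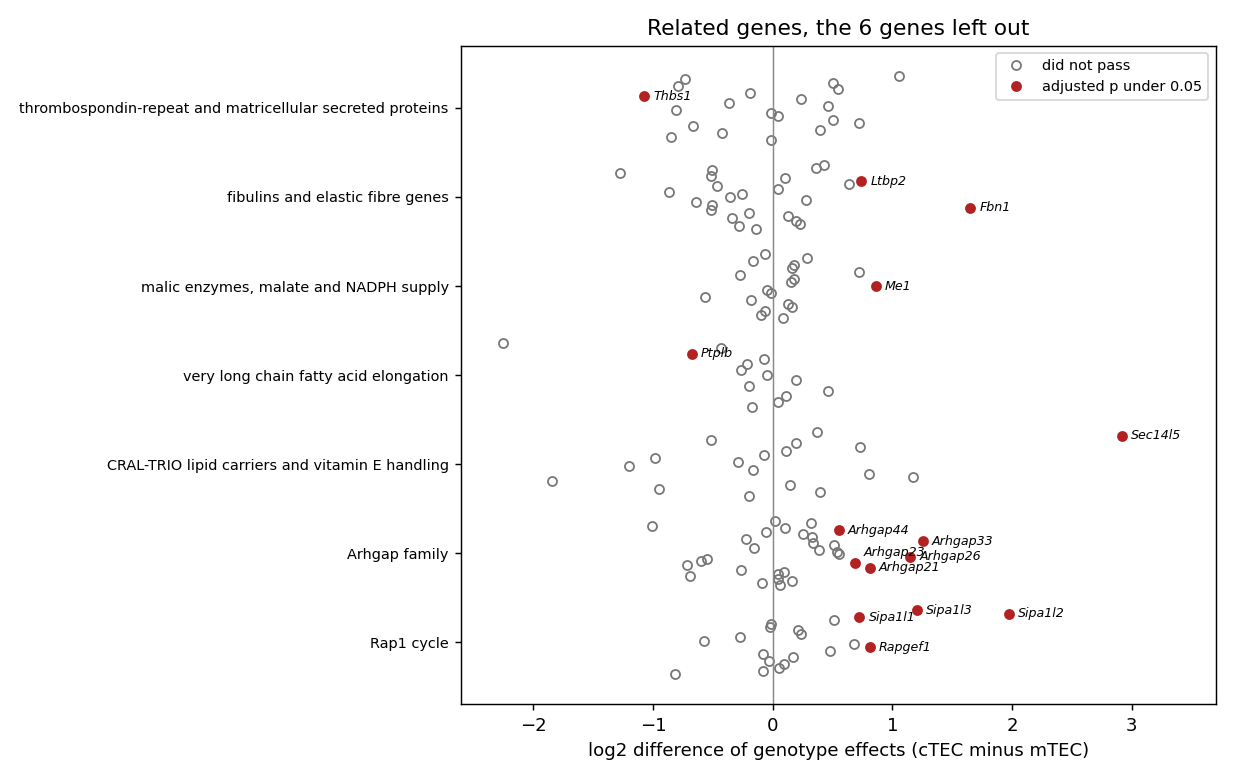
Difference of genotype effects, cTEC minus mTEC, in log2 units (x axis) for each tested gene of the 7 related lists (y axis), the 6 genes left out. Filled points have an adjusted p under 0.05 by edgeR and are named. Thbs1 and Ptplb are the only named genes below 0, the side of the 6 genes.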

How the data were processed

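The authors deposited raw counts by gene symbol in a single table that covers the 12 libraries of sorted thymic epithelial cells. The kits, NucleoSpin XS for RNA and SMARTer low-input for libraries, are named per the labels' protocols. The latter does not mark strand, so a gene and its antisense partner share reads. Alignment and counting used STAR and HTSeq with build mm9, and edgeR was also named, per the submitters' processing notes. Their versions, the annotation and the handling of multiply mapped reads were not given in the sources used here.

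Counts were tested by quasi-likelihood in edgeR 4.0.16 (R 4.3.3, two-sided, TMM scaling, filterByExpr by group). A single model of the 4 groups was fitted to all 12 libraries and left 8 residual degrees of freedom. P-values were adjusted by Benjamini-Hochberg over 17268 genes, with a threshold of 0.05. The contrasts were genotype in cTEC, genotype in mTEC, their difference (cTEC minus mTEC) and mTEC over cTEC averaged over genotypes. The 6 genes and the lists were chosen with earlier results of these data known. Likeness used log2 CPM with a prior count of 2. The genes named were the 6, the 3 most like each, and up to 3 of each related list with the lowest adjusted p in cTEC and in the difference, plus 5 genes that check the genotype. A gene that this rule names is not reported here. Transcript lengths were matched by symbol to GENCODE M21 for 6 of 6 genes, and promoters to RefSeq for 4 of 6. Alternatives were DESeq2 1.42.0, its size factors, limma 3.58.1 voom with quality weights, a robust fit, no filter, a stricter filter (at least 5 CPM in at least 3 libraries), a fit of 1 cell type alone, and leaving out each library. No counting intervals are given, since reads were not tagged with molecular identifiers.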

Additional observations from a re-analysis of the deposited data

Results flagged for a closer look

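For Ptplad2 and Ttpa, every Cre library lay below every control in cTEC and above every control in mTEC. The share of all genes that did so was not counted. Both contrasts entered the rule that chose the genes, so nothing is read from this. The difference of effects was -2.23 on the log2 scale for Ptplad2 and -1.94 for Ttpa, and since both were chosen for it, it was not tested.

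Among the related genes named in the text, up to 3 of each list, the edgeR test of the difference between the genotype effects in the 2 cell types was passed by Thbs1 (-1.07) and Ptplb (-0.68), which had the sign of the 6 genes. It was passed with the opposite sign by Fbn1 (1.65), Ltbp2 (0.74), Me1 (0.86) and Sec14l5 (2.92). The same held for Arhgap26 (1.15), Arhgap23 (0.69), Arhgap33 (1.25), Sipa1l2 (1.97), Sipa1l3 (1.21) and Rapgef1 (0.81). Beyond these, Arhgap21 (0.81), Arhgap44 (0.55) and Sipa1l1 (0.73) passed with that sign, and they are named after their values were seen.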

How the results depend on the processing

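All 6 genes were called higher in cTEC than in mTEC under each alternative that gives this contrast and in each of the 12 fits that left out 1 library. In the main fit 33.8% of all genes tested were called in that direction. These fits reuse the libraries that chose the genes, so the calls are not independent support for the choice. None of the results named in the text changed sign where it had been called. The counts over all genes moved more. The 358 genes called for genotype in mTEC became 599 with DESeq2, 1672 with limma voom, 1049 with no filter and 1026 with only the 6 mTEC libraries, and ran from 78 without library 1 to 984 without library 11. The 692 genes called for the difference became 1131 with DESeq2, 1398 with limma voom and 1140 with no filter, and ran from 371 without library 1 to 1644 without library 11. The 1555 genes called in cTEC ran from 1018 without library 9 to 2294 without library 11. The Ism1 difference ran from -2.90 without library 1 to -2.26 without library 10. The Efemp1 difference ran from -1.84 without library 11 to -1.49 without library 4. For Me3 it ran from -2.69 without library 3 to -1.79 without library 10, and for Ptplad2 from -2.58 without library 6 to -1.77 without library 1. For Arhgap20 it ran from -2.10 without library 11 to -1.48 without library 10, and for Ttpa from -2.14 without library 6 to -1.67 without library 4. The cause of these shifts was not tested. Depth limits the mTEC values, most of all for Ptplad2 in control mTEC, with 4 to 12 reads per library. Control mTEC libraries held 11 to 21 reads for Ttpa, 15 to 21 for Arhgap20, 15 to 31 for Me3 and 14 to 37 for Ism1. For Efemp1 they held 51 to 68. No paired analysis was possible because the groups share no replicate numbers.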
